A study of Mus musculus with 8 samples.

Results

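Macrophage identity genes and the axis of colony-stimulating factor 1 (CSF1) were examined in 8 bulk RNA-Seq libraries of mouse microvascular cells. The set was 10 genes chosen by name from the deposited table of 22520 genes. They were the ligand gene Csf1, its receptor gene Csf1r, the transcription factor gene Spi1, and 7 genes in use as macrophage markers, namely Cd68, Lyz2, Mrc1, Cd163, Aif1, Mpeg1 and Cx3cr1. The table listed 9 of them under these symbols, and Spi1 was found by its Ensembl identifier under the older symbol Sfpi1.

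The libraries were made from total RNA of cells of heart, liver and lung, mixed together, from C57BL/6 mice at postnatal day 14. The 4 LRP1 KO libraries came from LRP1 f/f; Cdh5-CreER+/- mice, in which the lipoprotein receptor gene Lrp1 is deleted by a Cre recombinase driven from the promoter of Cdh5, the gene of the endothelial junction protein VE-cadherin. The 4 wildtype (WT) libraries came from LRP1 f/f littermates without Cre, so the floxed allele was shared by both groups and the Cre transgene was not. Cells were taken with magnetic beads that carry an antibody to the endothelial surface protein PECAM-1. Whether each library is a separate animal is not stated in the sources used here, and the p-values measure only the spread between these libraries.

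Macrophages depend on CSF1R, a receptor tyrosine kinase of the cell surface, for survival and proliferation, and CSF1 and IL34 are its ligands. CSF1 is secreted by fibroblasts, endothelial cells and other stromal cells, while CSF1R is carried mainly by monocytes and macrophages. PU.1, the product of Spi1, is an ETS family transcription factor that binds purine-rich DNA and drives many macrophage genes, Csf1r among them. Resident macrophages of heart, liver and lung share this dependence and differ in the scavenger receptors and surface proteins that they carry.

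Lrp1 measured 113, 140, 103 and 124 FPKM (fragments mapped to a gene, scaled to transcript length and library size) across WT libraries 1 to 4, against 3.45, 5.20, 2.79 and 7.72 across LRP1 KO libraries 1 to 4, so every library matched its label. The sum of 18 endothelial markers was 269.6 to 290.6 FPKM in WT and 760.2, 512.8, 590.6 and 282.4 in LRP1 KO libraries 1 to 4, which put library 4 at the WT level. The sum of 12 fibroblast markers was 2664 to 3857 FPKM in WT and 2210 to 3449 in LRP1 KO, above the endothelial sum in every library. Columns of the table had nearly the same distribution of values (column sums of 503571 to 504112), and the depth of the libraries is unknown.

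Of the 10 genes, 7 passed the filter on low values (at least 1 FPKM in at least 4 libraries), and limma called all 7 higher in LRP1 KO at an adjusted p under 0.05. Over all 11389 tested genes, 13.6% were called in either direction and 6.27% were called higher. Spi1, Cd68, Lyz2, Mrc1 and Mpeg1 were called with at least a 2-fold rise, against 1.12% of tested genes. The 4 LRP1 KO libraries were all above the 4 WT libraries for Csf1r, Cd68, Lyz2, Mrc1 and Mpeg1, against 8.84% of tested genes. The median log2 fold change of the 7 genes was 1.67, beside -0.01 for all tested genes. Mrc1 passed the filter through the LRP1 KO libraries alone and had to differ, so these counts and this median describe the genes and support nothing further. Cd163, Aif1 and Cx3cr1 were below the filter. In bulk RNA, more cells of a type and more RNA per cell cannot be told apart.

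**Figure D1:**
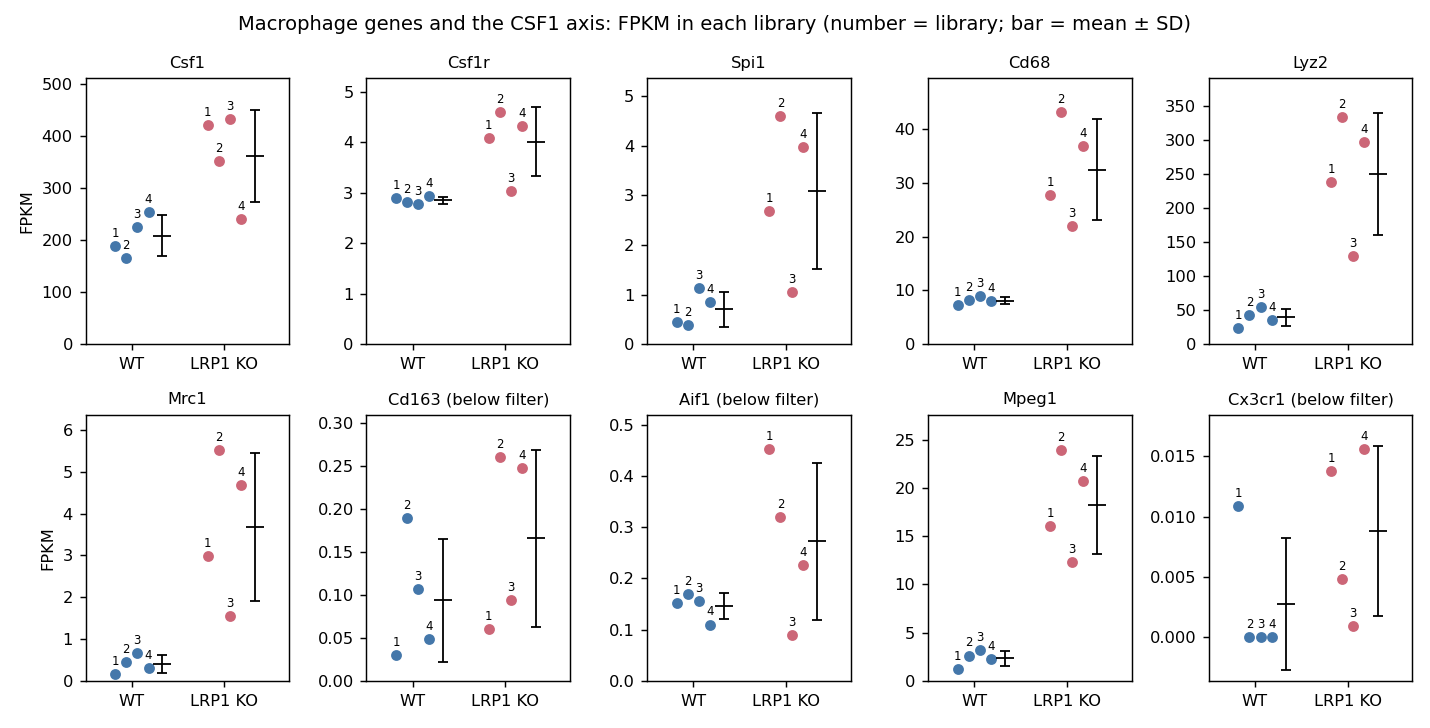
FPKM of the 10 genes (vertical axis, one scale per gene) in the 4 WT (blue) and 4 LRP1 KO (red) libraries, with each point numbered by its library and the bar showing mean ± SD. Cd68, Lyz2, Mrc1 and Mpeg1 separate widely, Csf1r separates by a small gap, Csf1 and Spi1 overlap by 1 library, and Cd163, Aif1 and Cx3cr1 stay below 0.5 FPKM.

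Csf1, the ligand gene, lies on the reverse strand at chr3:107741048-107760469 (mm10). It had the highest mean of the members in both groups, although Lyz2 was above it in LRP1 KO library 4, and its WT mean was above that of 98.4% of the genes in the table. Csf1 measured 188, 165, 225 and 254 FPKM across WT libraries 1 to 4, against 421, 351, 432 and 241 across LRP1 KO libraries 1 to 4. LRP1 KO libraries 1 to 3 were above every WT library, and library 4 was below the highest WT library. The mean was 208.2 ± 39.5 (SD, n = 4) in WT and 361.4 ± 87.8 (SD, n = 4) in LRP1 KO, a ratio of 1.74. The log2 fold change of FPKM + 1 was 0.78 (SE 0.19) with a limma adjusted p of 0.0328, and the 2-sided exact permutation p of the gene alone was 0.0571, where the smallest p the design allows is 0.0286.

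Csf1 differed from the other members in which LRP1 KO libraries were high. In the 6 other tested members, library 2 was highest, followed by libraries 4, 1 and 3, whereas Csf1 was highest in library 3, followed by 1, 2 and 4. The endothelial sum was also highest in libraries 1 and 3 and lowest in library 4. With a score of endothelial markers as a covariate, the Csf1 log2 fold change was 0.34 (SE 0.20) with a limma adjusted p of 0.629, so the call did not hold beside this score. Leaving out 1 library at a time kept the Csf1 call in 2 of 8 fits, those without LRP1 KO library 4 or WT library 4, and the log2 fold change ran from 0.67 to 0.96.

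**Figure D2:**
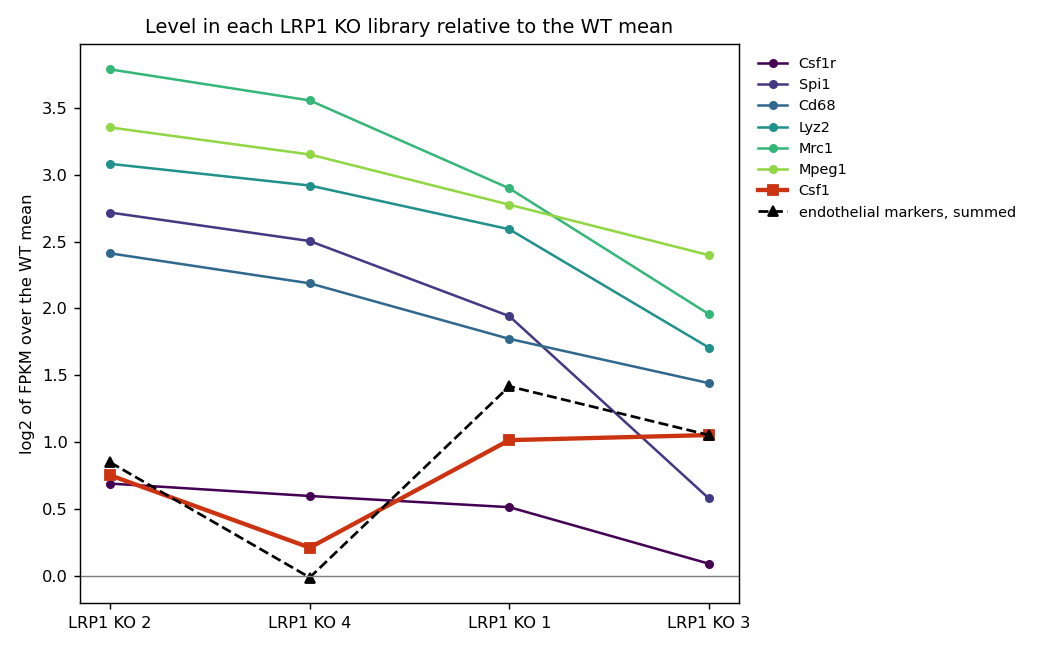
Log2 of FPKM over the WT mean (vertical axis) in the 4 LRP1 KO libraries (horizontal axis, ordered by Cd68) for the 7 tested members and for the sum of 18 endothelial markers. Lines only join the points of one gene. Csf1 and the endothelial sum are lowest in library 4, at 0.21 and -0.01, while the other 6 members are lowest in library 3.

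Il34, the gene of the other CSF1R ligand, was not called. It measured 3.07, 2.24, 1.92 and 3.24 FPKM across WT libraries 1 to 4, against 2.25, 2.30, 2.79 and 3.72 across LRP1 KO libraries 1 to 4. The groups overlapped, and the log2 fold change was 0.06 (SE 0.16, limma adjusted p = 0.827). Cx3cl1, which encodes the ligand of the chemokine receptor CX3CR1, stood at 5.02, 2.35, 3.01 and 4.74 FPKM in WT and 4.33, 4.21, 4.06 and 4.0 in LRP1 KO. It also overlapped between the groups, with a log2 fold change of 0.15 (limma adjusted p = 0.577). Hp encodes haptoglobin, which CD163 takes up in complex with haemoglobin. Hp fell from a mean of 91.0 to 34.3 FPKM, a log2 fold change of -1.63 (SE 0.41, limma adjusted p = 0.0321). The LRP1 KO libraries stood at 15.5, 36.7, 16.5 and 68.6 FPKM, all below the lowest WT library at 80.0. The Hp call was lost in 9 of 14 alternatives, among them the endothelial covariate (log2 fold change -0.46, limma adjusted p = 0.546) and every fit without 1 library other than LRP1 KO library 4.

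Csf1r, the receptor gene, was low and moved least of the 7 tested members. It measured 2.89, 2.81, 2.78 and 2.93 FPKM across WT libraries 1 to 4, against 4.08, 4.61, 3.04 and 4.32 across LRP1 KO libraries 1 to 4. The WT libraries were almost level and all LRP1 KO libraries were above them, but library 3 was only 1.04 times the highest WT library. The mean was 2.85 ± 0.0685 (SD, n = 4) in WT and 4.01 ± 0.681 (SD, n = 4) in LRP1 KO, a ratio of 1.41. The log2 fold change was 0.37 (SE 0.10, limma adjusted p = 0.0460), with an exact permutation p of 0.0286. Leaving out any 1 library other than LRP1 KO library 3 ended the call, with limma adjusted p up to 0.118, and with the endothelial score as a covariate the log2 fold change was larger, at 0.47, with a wider SE of 0.15 and an adjusted p of 0.250. Exons of Csf1r overlap those of Hmgxb3 on the opposite strand, and how strand was used in the quantification is not given in the sources used here. Hmgxb3 stood at 8.04 to 9.19 FPKM in WT and 8.42 to 9.0 in LRP1 KO, with a log2 fold change of 0.04 (limma adjusted p = 0.679).

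Spi1, at chr2:91082390-91115756 on the forward strand, was below 1 FPKM on average in WT. It measured 0.442, 0.380, 1.14 and 0.840 FPKM across WT libraries 1 to 4, against 2.69, 4.60, 1.05 and 3.97 across LRP1 KO libraries 1 to 4. LRP1 KO libraries 1, 2 and 4 were above every WT library, and library 3 was below WT library 3. The mean was 0.700 ± 0.357 (SD, n = 4) in WT and 3.08 ± 1.57 (SD, n = 4) in LRP1 KO, a ratio of 4.4. The log2 fold change of FPKM + 1 was 1.19 (SE 0.29, limma adjusted p = 0.0318), which understates the ratio of so low a gene, and the exact permutation p was 0.0571. The call held in 3 of the 8 fits that left out a library, those without LRP1 KO library 3, LRP1 KO library 4 or WT library 3, with limma adjusted p from 0.00485 to 0.0915 over the 8. With the endothelial score as a covariate, the log2 fold change was larger, at 1.6, with an SE of 0.39 and a limma adjusted p of 0.123.

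Cd68, Lyz2, Mpeg1 and Mrc1 rose 4.0-fold to 9.23-fold as ratios of the group means. Cd68 encodes a glycoprotein of late endosomes and lysosomes and lies on the reverse strand at chr11:69664213-69666153. It measured 7.36, 8.21, 8.87 and 7.99 FPKM across WT libraries 1 to 4, against 27.7, 43.1, 22.0 and 36.9 across LRP1 KO libraries 1 to 4. The WT values lay close together, and the lowest LRP1 KO library was far above them. The mean was 8.11 ± 0.624 (SD, n = 4) in WT and 32.5 ± 9.41 (SD, n = 4) in LRP1 KO, and the log2 fold change of FPKM + 1 was 1.83 (SE 0.18, limma adjusted p = 0.000673).

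Lyz2, the lysozyme gene of macrophages and other myeloid cells, lies on the reverse strand at chr10:117277331-117282321. It measured 24.0, 43.2, 54.3 and 36.2 FPKM across WT libraries 1 to 4, against 238, 334, 129 and 298 across LRP1 KO libraries 1 to 4. No library of one group reached the other. The mean was 39.4 ± 12.7 (SD, n = 4) in WT and 249.7 ± 89.8 (SD, n = 4) in LRP1 KO, a ratio of 6.33, with a log2 fold change of 2.60 (SE 0.31, limma adjusted p = 0.00205). The sister gene Lyz1 shares sequence with Lyz2: 15.4% of the 50-base stretches of the Lyz2 transcript also occur in Lyz1, so reads may have been split between them. Lyz1 rose from 1.6 ± 0.46 FPKM (SD, n = 4) in WT to 10.9 ± 4.48 (SD, n = 4) in LRP1 KO, also without overlap, with a log2 fold change of 2.13 (SE 0.27, limma adjusted p = 0.00247).

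Mpeg1 encodes perforin-2, a pore-forming protein of phagocytes, and lies on the forward strand at chr19:12460779-12465283. It measured 1.28, 2.63, 3.19 and 2.23 FPKM across WT libraries 1 to 4, against 16.0, 23.9, 12.3 and 20.7 across LRP1 KO libraries 1 to 4. The lowest LRP1 KO library was 3.85 times the highest WT library. The mean was 2.33 ± 0.807 (SD, n = 4) in WT and 18.2 ± 5.10 (SD, n = 4) in LRP1 KO, a ratio of 7.81, with a log2 fold change of 2.52 (SE 0.23, limma adjusted p = 0.000492).

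Mrc1 encodes the mannose receptor CD206, a lectin of tissue macrophages and also of sinusoidal and lymphatic endothelium, and lies on the forward strand at chr2:14229392-14332057. It measured 0.170, 0.459, 0.657 and 0.311 FPKM across WT libraries 1 to 4, against 2.98, 5.51, 1.55 and 4.69 across LRP1 KO libraries 1 to 4. All WT libraries were below the filter value and all LRP1 KO libraries above it. The mean was 0.399 ± 0.209 (SD, n = 4) in WT and 3.68 ± 1.77 (SD, n = 4) in LRP1 KO, and the log2 fold change of FPKM + 1 was 1.67 (SE 0.27, limma adjusted p = 0.00721). Since Mrc1 passed the filter through LRP1 KO alone, its groups could not overlap and its p-values are no support for a difference. The exact permutation p was 0.0286 for each of Cd68, Lyz2 and Mpeg1, the smallest the design allows. The calls of these 3 genes held in every fit that left out a library, with the endothelial score as a covariate, and under every other alternative run.

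**Figure D3:**
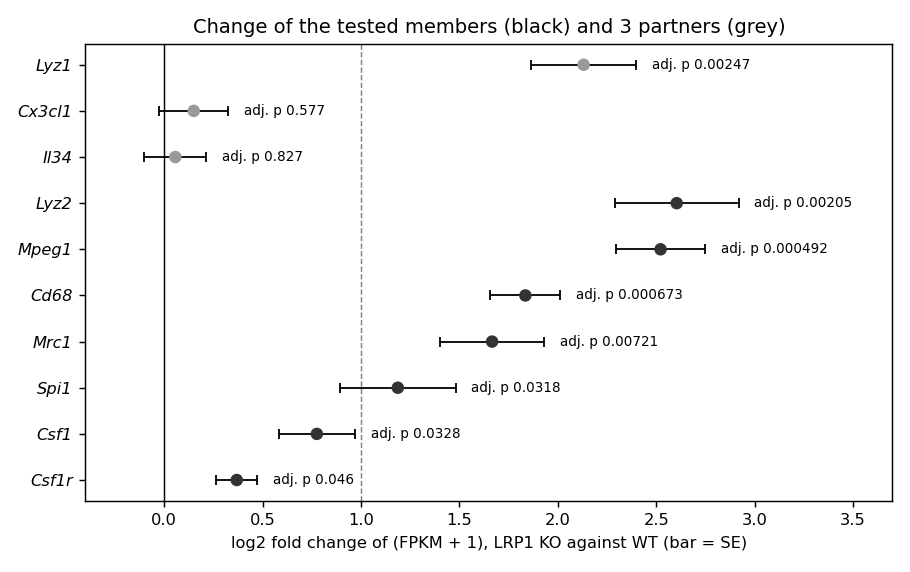
Log2 fold change of FPKM + 1 in LRP1 KO against WT (horizontal axis) with its SE for the 7 tested members (black) and for Lyz1, Cx3cl1 and Il34 (grey). The solid line marks no change and the dashed line a 2-fold rise, and the limma adjusted p stands beside each point. Csf1r and Csf1 sit left of the dashed line, at 0.37 and 0.78, and Lyz2 is farthest right at 2.60.

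Promoter sequence is shown for 3 members, Cd68 and Mrc1, which hold GAGGAA, and Mpeg1, which does not. GAGGAA is the purine-rich core to which PU.1 binds. Lyz2, which also rose and holds none, is not shown. The sequences are the 250 bases before the RefSeq start (GRCm38.p6), written 5′ to 3′ on the strand of the gene, with GAGGAA or its reverse complement TTCCTC in capitals. Cd68 is at chr11:69666171-69666420 on the reverse strand, Mrc1 at chr2:14229164-14229413 and Mpeg1 at chr19:12460520-12460769 on the forward strand.
Cd68: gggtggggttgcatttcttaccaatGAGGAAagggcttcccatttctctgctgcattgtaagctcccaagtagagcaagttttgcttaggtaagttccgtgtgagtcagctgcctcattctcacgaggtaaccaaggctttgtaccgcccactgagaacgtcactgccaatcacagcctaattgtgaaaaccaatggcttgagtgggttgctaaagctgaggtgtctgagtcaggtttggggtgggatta
Mrc1: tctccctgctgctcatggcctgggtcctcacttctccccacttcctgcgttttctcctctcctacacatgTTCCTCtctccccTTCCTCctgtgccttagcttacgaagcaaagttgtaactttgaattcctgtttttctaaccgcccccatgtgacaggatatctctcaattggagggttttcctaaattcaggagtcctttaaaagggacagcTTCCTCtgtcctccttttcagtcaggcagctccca
Mpeg1: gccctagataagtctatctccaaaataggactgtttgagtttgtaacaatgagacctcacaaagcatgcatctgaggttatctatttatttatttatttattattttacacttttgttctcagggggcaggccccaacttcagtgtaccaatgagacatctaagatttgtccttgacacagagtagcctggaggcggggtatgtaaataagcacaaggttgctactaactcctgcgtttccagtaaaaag
Of the 8 members with a promoter in the table, 3 held GAGGAA on either strand between 250 bases before and 50 bases after the start, namely Cd68, Mrc1 and Aif1. The same letters stood in 28.3% of 32851 RefSeq promoters of that length. Cd68 held them 225 bases before the start and once more after the start, and Mrc1 held them on the other strand at 180, 167 and 35 bases before the start. Mpeg1, Lyz2, Csf1, Cd163 and Cx3cr1 held none in this window. The longer GAGGAAGT was in 3.20% of promoters and in none of the 8. These matches describe letters only. Mpeg1 and Lyz2 rose without them, and Aif1, which held them, was below the filter and was not tested with limma. Any link between the letters and the changes was not tested.

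Levels relative to Cd68 in the same library showed that the members did not rise in proportion. Mpeg1 was 0.174 to 0.36 times Cd68 in WT and 0.577, 0.553, 0.559 and 0.561 times in LRP1 KO libraries 1 to 4, so this ratio was higher in LRP1 KO and nearly constant there. Csf1r was 0.314 to 0.393 times Cd68 in WT and 0.107 to 0.147 times in LRP1 KO. The Csf1r ratio thus went the other way, again without overlap. Csf1 was 20.1 to 31.9 times Cd68 in WT and 6.53 to 19.6 times in LRP1 KO, also without overlap. Spi1 was 0.0463 to 0.128 times Cd68 in WT and 0.0476 to 0.108 times in LRP1 KO, and the groups overlapped. The ratios of Lyz2 (3.26 to 6.12 in WT, 5.85 to 8.59 in LRP1 KO) and of Mrc1 (0.0231 to 0.0741 in WT, 0.0705 to 0.128 in LRP1 KO) overlapped slightly at the upper end of WT. Cd68 itself rose 4.0-fold, so a gene that rose less, or did not move, has a lower ratio in LRP1 KO. These ratios were computed after the values had been seen and carry no test.

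**Figure D4:**
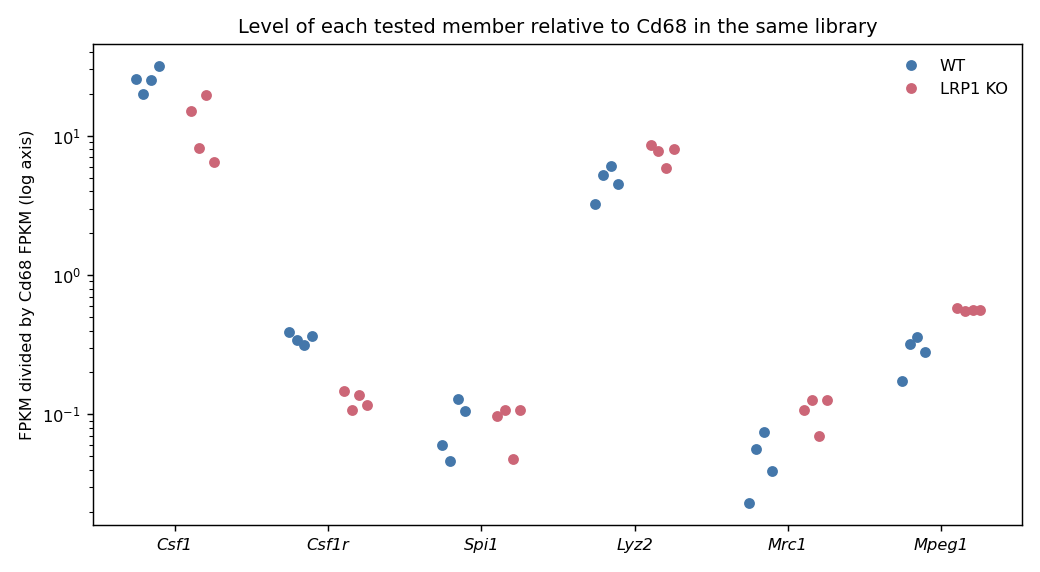
FPKM of 6 members divided by Cd68 FPKM in the same library (vertical log axis) for WT (blue) and LRP1 KO (red), with 1 point per library, libraries 1 to 4 from left to right. The Csf1r and Csf1 ratios are lower in every LRP1 KO library than in any WT library, the Mpeg1 ratio is higher, and the Spi1 ratios overlap.

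The other 3 members were barely present in either group. Cd163, the scavenger receptor gene for haptoglobin and haemoglobin complexes, stood at 0.0306, 0.189, 0.107 and 0.0487 FPKM in WT and 0.0603, 0.260, 0.0946 and 0.248 in LRP1 KO (exact permutation p = 0.257). Aif1, which encodes the actin-binding protein IBA1, stood at 0.151, 0.169, 0.155 and 0.110 FPKM in WT and 0.453, 0.319, 0.0896 and 0.226 in LRP1 KO (exact permutation p = 0.200). Both overlapped between the groups, although LRP1 KO libraries 1, 2 and 4 were above all WT libraries for Aif1. Cx3cr1, the fractalkine receptor gene of monocytes and some resident macrophages, was listed at 0 in WT libraries 2 to 4, at 0.0109 FPKM in WT library 1, and at no more than 0.0156 in LRP1 KO (exact permutation p = 0.171). Without depth, no detection limit can be given for these genes.

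Genes that act below CSF1R gave 6 higher calls and 1 lower call among 15 tested of 19 listed, with a median log2 fold change of 0.23, beside 6.27% of all tested genes called higher and 833 of 11389 called lower. Tyrobp, whose product is the signaling adaptor DAP12 of myeloid cells, rose from 3.75 to 26.8 FPKM (log2 fold change 2.52, limma adjusted p = 0.0006). The phosphatase gene Inpp5d, the kinase gene Lyn and the phospholipase gene Plcg2 also rose, by 0.51 to 1.17 on the log2 scale. The phosphatase gene Ptpn6 was called at a log2 fold change of 0.63 (limma adjusted p = 0.0493), but its groups overlapped and the call was lost in 8 of 14 alternatives. Inpp5d, with the 1.17, passed the filter through the LRP1 KO libraries alone and had to differ. With the endothelial score as a covariate, Tyrobp was the 1 gene of the list still called, at a log2 fold change of 2.73 (limma adjusted p = 0.00638). Lyn is used well beyond myeloid cells. Akt1 and Mapk3, abundant kinase genes that most cell types use, moved little. Akt1 had a log2 fold change of 0.25 (limma adjusted p = 0.0574), and Mapk3 was the gene called lower, with a log2 fold change of -0.28 (adjusted p = 0.00847).

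Myeloid transcription factor genes other than Spi1 did not move together. Of 12 tested, 2 were called higher, Klf4 among them, and Maf was called lower, and the median log2 fold change was -0.16. Klf4 rose from 22.6 to 31.3 FPKM without overlap (log2 fold change 0.44, limma adjusted p = 0.0474). Maf fell from 43.4 to 29.5 FPKM (log2 fold change -0.57, limma adjusted p = 0.0336), with LRP1 KO library 4 at 41.3 within the WT range. Id3 and Cebpb, the most abundant of the list beside Maf, had log2 fold changes of -0.45 (adjusted p = 0.0535) and -0.55 (adjusted p = 0.0846) by limma. With the endothelial score as a covariate, Maf (limma adjusted p = 0.650) and Klf4 (adjusted p = 0.682) were not called, and each was called in 1 of the 8 fits that left out a library, the fit without LRP1 KO library 4. Id3 and Cebpb were among the genes of the list called lower in that fit too. Maf, Klf4, Id3 and Cebpb are also used in stromal cells, and Irf8 was not analysed here.

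Among 20 other macrophage markers, 12 were tested and 9 were called higher, with a median log2 fold change of 1.69, beside 6.27% of all tested genes called higher. Adgre1, Msr1 and Ms4a7, all called, passed the filter through the LRP1 KO libraries alone and had to differ, so the count and median are a description. Ctss, the gene of the lysosomal protease cathepsin S, rose from 5.98 to 46.5 FPKM (log2 fold change 2.73, limma adjusted p = 0.000449). C1qb, of the complement component C1q, rose from 2.94 to 26.8 FPKM (log2 fold change 2.75, limma adjusted p = 0.00237). Both followed the order of LRP1 KO libraries seen for Cd68. Cd14, C1qa and Mertk were not called. Cd14, the lipopolysaccharide co-receptor gene, was 37.3 FPKM in WT and 26.9 in LRP1 KO (log2 fold change -0.47, limma adjusted p = 0.136), and Timd4 and Gpr34 were below 0.1 FPKM in all libraries.

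Markers of macrophages of single organs were mostly low. Of 14, 6 were tested, and Chil3 and Cd5l were called higher. Chil3, a chitinase-like protein gene of alveolar macrophages, rose from 13.7 to 62.2 FPKM (log2 fold change 2.08, limma adjusted p = 0.0331), and LRP1 KO library 3 at 21.3 lay below WT library 3 at 22.9. The Chil3 call held in 3 of the 8 fits that left out a library, and was lost with the endothelial covariate (log2 fold change 2.81, limma adjusted p = 0.125). Cd5l, a gene of Kupffer cells and other resident macrophages, rose from 0.474 to 4.65 FPKM without overlap (log2 fold change 1.85, limma adjusted p = 0.00526), but it passed the filter through the LRP1 KO libraries alone and had to differ. Ear2 and Pparg had log2 fold changes of -1.43 (adjusted p = 0.0678) and -0.15 (adjusted p = 0.491) by limma. Clec4f, Siglecf, Krt79 and Retnla were below 0.1 FPKM in every library.

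Monocyte markers were present, and most neutrophil, dendritic cell and lymphocyte markers were near 0. Of 10 monocyte markers, 5 were tested and Plac8 and Vcan were called higher, Plac8 from 44.4 to 93.3 FPKM (log2 fold change 1.03, limma adjusted p = 0.00436) and Vcan from 6.91 to 10.8 (0.58, adjusted p = 0.0283). The Plac8 call held in all 14 alternatives and the Vcan call in 6. Ace was not called (-0.91, limma adjusted p = 0.0605), and Ccr2, Treml4 and Fcnb were below 0.1 FPKM throughout. Of 12 neutrophil markers, 2 were tested: S100a8 rose from 0.813 to 2.52 FPKM with overlap (log2 fold change 0.94, limma adjusted p = 0.0474), Mmp8 was not called (-0.57, adjusted p = 0.136), and 7 others, Ly6g and S100a9 included, were below 0.1 FPKM. The S100a8 call was lost in 10 of 14 alternatives. Among 7 dendritic cell markers, only Zbtb46 was tested (log2 fold change -0.09, limma adjusted p = 0.497). All 12 lymphocyte markers were below 0.1 FPKM in all libraries.

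**Figure D5:**
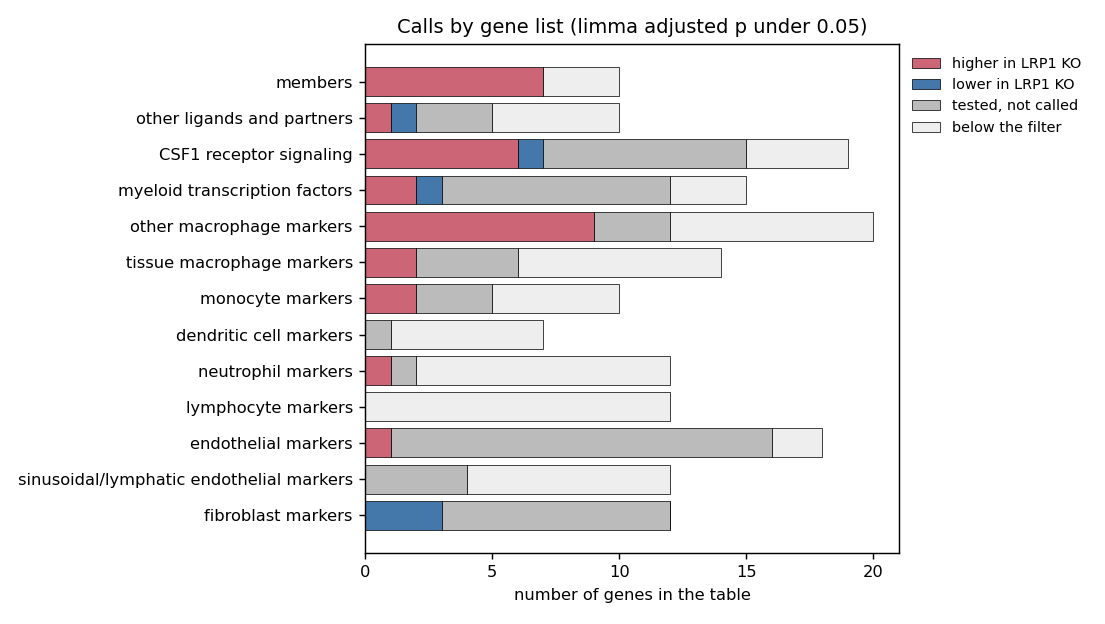
Number of genes (horizontal axis) in the 10 members and in 12 further gene lists that limma called higher (red) or lower (blue) in LRP1 KO, tested without a call (grey), or left below the filter (pale). The members have 7 higher calls and the other macrophage markers 9, of which 1 and 3 passed the filter through LRP1 KO alone, and no lymphocyte marker passed the filter.

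Markers of endothelial cells and fibroblasts are given because Csf1 is made by both and Mrc1 also by some endothelium. Of 16 endothelial markers tested, Eng was called, from 56.5 to 114 FPKM (log2 fold change 0.94, limma adjusted p = 0.0279), and all 16 had positive fold changes with a median of 0.76. LRP1 KO library 4 decided this count: 13 were called without it, and none when any other library was left out. Cdh5 ranged over 8.87 to 11.2 FPKM in WT, against 47.3, 21.5, 33.9 and 8.56 in LRP1 KO libraries 1 to 4. Emcn (log2 fold change 1.57, limma adjusted p = 0.0560) and Cd34 (0.20, adjusted p = 0.215) were not called. None of the 4 tested sinusoidal or lymphatic markers was called, among them Pdpn (-0.19, limma adjusted p = 0.184), Stab1 (0.86, adjusted p = 0.118) and Lyve1 (0.80, adjusted p = 0.194), but 3 of the 4 were called higher without LRP1 KO library 4. Of 12 fibroblast markers, Pdgfra, Dpt and Thy1 were called lower and the median log2 fold change was -0.28, with Col1a2 at -0.28 (limma adjusted p = 0.221), Dcn at -0.45 (adjusted p = 0.122) and Col3a1 at -0.04 (adjusted p = 0.909). The 3 fibroblast calls became 5 without LRP1 KO library 4 and 0 or 1 without any other library, and 0 with the endothelial covariate or with no filter. The part of fibroblast levels in the Csf1 result was not tested. LRP1 KO library 4, where the endothelial sum was at the WT level, held the next to highest level of Cd68, Lyz2, Mpeg1 and Mrc1 among the LRP1 KO libraries.

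The genes whose profiles over the 8 libraries were nearest to those of Csf1 and Csf1r were different genes. Likeness was the root mean square difference of log2 (FPKM + 1), each gene centred on its own mean. Near to Csf1 were Actn1 (0.0561), Ccnd2 (0.0714), Palld (0.0797) and Fam65b (0.0939). Actn1, the gene of an actin crosslinking protein, ranged over 108.3 to 156.7 FPKM in WT, against 289.3, 223.0, 294.7 and 166.8 in LRP1 KO libraries 1 to 4. Nearest to Csf1r were Cmbl (0.0750), Timp1, Ctsh, Fam162a and Bmp1 (0.0920). Ctsh, a lysosomal protease gene, ranged over 31.6 to 34.3 FPKM in WT, against 41.5, 53.3, 34.3 and 41.6 in LRP1 KO libraries 1 to 4. None of these genes was another member.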

How the data were processed

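Bulk RNA-Seq of 4 WT and 4 LRP1 KO libraries was analysed from the table of 22520 genes deposited by the authors. The values were taken as FPKM from the tools in the submitters' processing notes (TopHat2, Cufflinks, mm10), since the deposited header names no unit. The study's methods name STAR and featureCounts for its sequencing, and which pipeline made this table is not stated. All columns reached the same maximum (7793), and sorted values differed between libraries by a median of 0.574%, so the libraries had been brought to a common distribution, which removes any difference in total RNA. The depth is unknown.

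Values were tested as log2(FPKM + 1) with limma 3.58.1 (R 4.3.3, variance trend), over genes at 1 FPKM or more in at least 4 of 8 libraries, with Benjamini-Hochberg adjustment over all 11389 genes and a threshold of 0.05. Single genes were also tested by a 2-sided exact permutation of the 8 libraries (70 splits). Alternatives were a pseudocount of 0.1, no filter, no variance trend, rescaling by the median ratio, an endothelial covariate, the replicate number as a block, and leaving out each library in turn over the same 11389 genes, a gene set kept after a first run had filtered each of these fits anew.

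The members and gene lists were chosen with earlier results of these data known. Named genes were the 10 members, Il34, Cx3cl1 and Lyz1, the 3 most abundant tested genes of each list, Lrp1, the 5 genes nearest to Csf1 and to Csf1r in profile, and the genes behind counts of 5 or fewer. Beyond this rule, Tyrobp, Hmgxb3, Cdh5, Ly6g, S100a9 and the other called genes of the receptor signaling list were named after their values were seen. So were the macrophage markers Itgam, Siglec1, Ptprc, Fcgr1, Marco and Vsig4. Gene positions came from GENCODE M21 (mm10) by Ensembl identifier. Some genes that this rule names are not reported here.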

Additional observations from a re-analysis of the deposited data

Results flagged for a closer look

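Cx3cr1 in WT library 1 was listed at 0.0109 FPKM while the other 3 WT libraries were listed at 0. With those 3 at exactly 0, any value above 0 would stand apart, so the gap says nothing more. Of 26 groups of 4 libraries examined in this way it was the only one, and chance alone picks about 1 group in 20. The value is far below the filter and no result rests on it.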

How the results depend on the processing

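Cd68, Lyz2, Mrc1, Mpeg1 and Lyz1 were called higher in all 15 settings, which for Mrc1 is no support, since the filter fixed its separation. Csf1, Csf1r and Spi1 kept their direction in all 15 and were called in 6, 5 and 7 of them. The number of members called was 7, and 4 with the endothelial covariate, 4 with no filter on low values and 4 to 6 when 1 library was left out. The number of genes called was 1547, and 162 with the endothelial covariate and from 512 (WT library 2 removed) up to 3021 (LRP1 KO library 4 removed) over the 8 fits that drop a library. Without a library, the log2 fold change ran from -0.0577 to 0.139 for Il34 and from -0.00687 to 0.275 for Cx3cl1, which turned sign without being called in any setting. Each fit that drops a library rests on 7 libraries, and the cause of these shifts was not tested.

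Same-numbered libraries did not deviate together in all pairs (correlations of 0.158, 0.141, 0.340 and -0.312), and 2 of 4 WT libraries correlated best with the LRP1 KO library of their own number, so the numbers were not treated as pairs. With the replicate number as a block, 1013 genes and 4 members (Cd68, Lyz2, Mrc1 and Mpeg1) were called. Depth is unknown, and levels below 1 FPKM carry no stated precision.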
